A study of Mus musculus with 12 samples.

Results

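Chromatin accessibility was examined around 6 genes of signalling by leukaemia inhibitory factor (LIF), its receptor and STAT3, in fibroblasts from mouse embryos (MEFs) and in embryonic stem cells of the mouse (mESCs). The genes are Lif, Lifr, Il6st, Jak1, Stat3 and Socs3. Their peaks were taken by position, as every ATAC-seq peak that overlapped the GENCODE M21 (GRCm38) body of a gene extended by 20 kb on each side. This gave 60 of the 91354 peaks of the set defined from the BGI samples (12 at Lif, 10 at Lifr, 6 at Il6st, 11 at Jak1, 6 at Stat3 and 15 at Socs3). From the Illumina samples it gave 63 of 87027 peaks (11, 11, 7, 12, 6 and 16 in the same order). All of them passed the filter on low counts.

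The study made Omni-ATAC-seq libraries, in which a transposase cuts open chromatin, from 3 MEF and 3 mESC samples that its methods call biological replicates. All cells had a C57/Bl6 background. The sources used here give no treatment, allele, age or sex, and refer to earlier work for the culture medium, so whether LIF was added is not stated. MEFs were sorted as Thy1+ and mESCs as Thy1-/Ssea1+/Epcam+ cells, so the groups are the cells that carried these surface markers. Each of the 6 libraries was read on both a BGI DNBSEQ-G400 (100 bp paired-end) and an Illumina HiSeqX10 (150 bp, trimmed to 100 bp), which gave 12 samples in 4 groups of 3. MEF libraries are numbered 1, 2 and 4, mESC libraries 1, 3 and 5. Both readings of a library come from the same cells, so n is 3 per cell type throughout.

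LIF is a secreted cytokine of the interleukin-6 family. It binds the receptor encoded by Lifr, which pairs with the signal-transducing chain that the whole family shares, encoded by Il6st. The kinase encoded by Jak1 sits on these receptor chains and phosphorylates the transcription factor STAT3, which moves to the nucleus, while the protein of Socs3, itself a target of STAT3, blocks the receptor and its kinase as negative feedback. The pathway is best known for keeping mouse embryonic stem cells undifferentiated in culture, and fibroblasts are a usual feeder source of LIF.

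Depth differed little within a cell type. The counted reads in peaks ran from 20085886 to 21662775 in the MEF samples and from 15860985 to 16958488 in the mESC samples, each on the peak set of its own platform. Promoter peaks of the mESC markers (Pou5f1, Nanog, Sox2, Esrrb, Zfp42 and Epcam) were higher in mESCs at 6 of 6 genes on both platforms, with summed levels of 167.9 to 201.8 CPM in mESCs (read counts scaled to the total in peaks of each sample) and 20.6 to 21.3 CPM in MEFs on BGI. Of 8 fibroblast markers, 7 were lower in mESCs on both platforms and Pdgfra was not called; their sum was 273.9 to 308.3 CPM in MEFs and 85.9 to 95.1 CPM in mESCs. Of the haematopoietic markers, Ptprc and Spi1 had no promoter peak and Cd68 was higher in mESCs; of 3 endoderm markers Sox17 and Foxa2 were higher and Gata6 lower in mESCs, with sums of 38.2 to 46.5 CPM in MEFs and 54.5 to 59.6 CPM in mESCs. Of the endothelial and trophectoderm markers, Cdh5 and Cdx2 had no promoter peak and Pecam1 and Elf5 were not called; of the neural pair, Pax6 was lower and Tubb3 was called lower on Illumina alone. The part of other cells in the results was not tested.

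The question was where accessibility around these genes differed between the cell types. The highest promoter peak of each gene was open in both cell types and differed little. At Lif that peak lay inside the gene and was called in all 6 MEF samples but in 5 of 6 mESC samples. Most peaks away from promoters differed several fold, some upward and some downward at the same gene. On BGI, 20 of the 60 peaks were higher and 24 lower in mESCs (edgeR quasi-likelihood test, adjusted p under 0.05), against 40.9% higher and 43.2% lower, 84.1% in all, among all peaks of the set. On Illumina, 24 of 63 were higher and 29 lower, against 42.1%, 42.4% and 84.5%. A larger share of cells with an open site and a more open site in each cell cannot be told apart in such bulk samples.

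Among the 11 BGI peaks within 1 kb of a transcription start site (TSS) of their own gene, 4 were lower, none was higher and the median absolute log2 fold change was 0.21; of all peaks within 1 kb of any TSS, 72.3% were called and that median was 0.61. Among the 48 peaks farther than 1 kb from any TSS, 20 were higher and 20 lower, with a median absolute log2 fold change of 2.11, beside 89.8% called and 2.57 for all such peaks. On Illumina 7 of 13 own-promoter peaks were lower (74% of all such peaks were called), and 24 were higher and 21 lower of 49 peaks away from any TSS (90%). These shares were set side by side without a test of their difference.

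**Figure D1:**
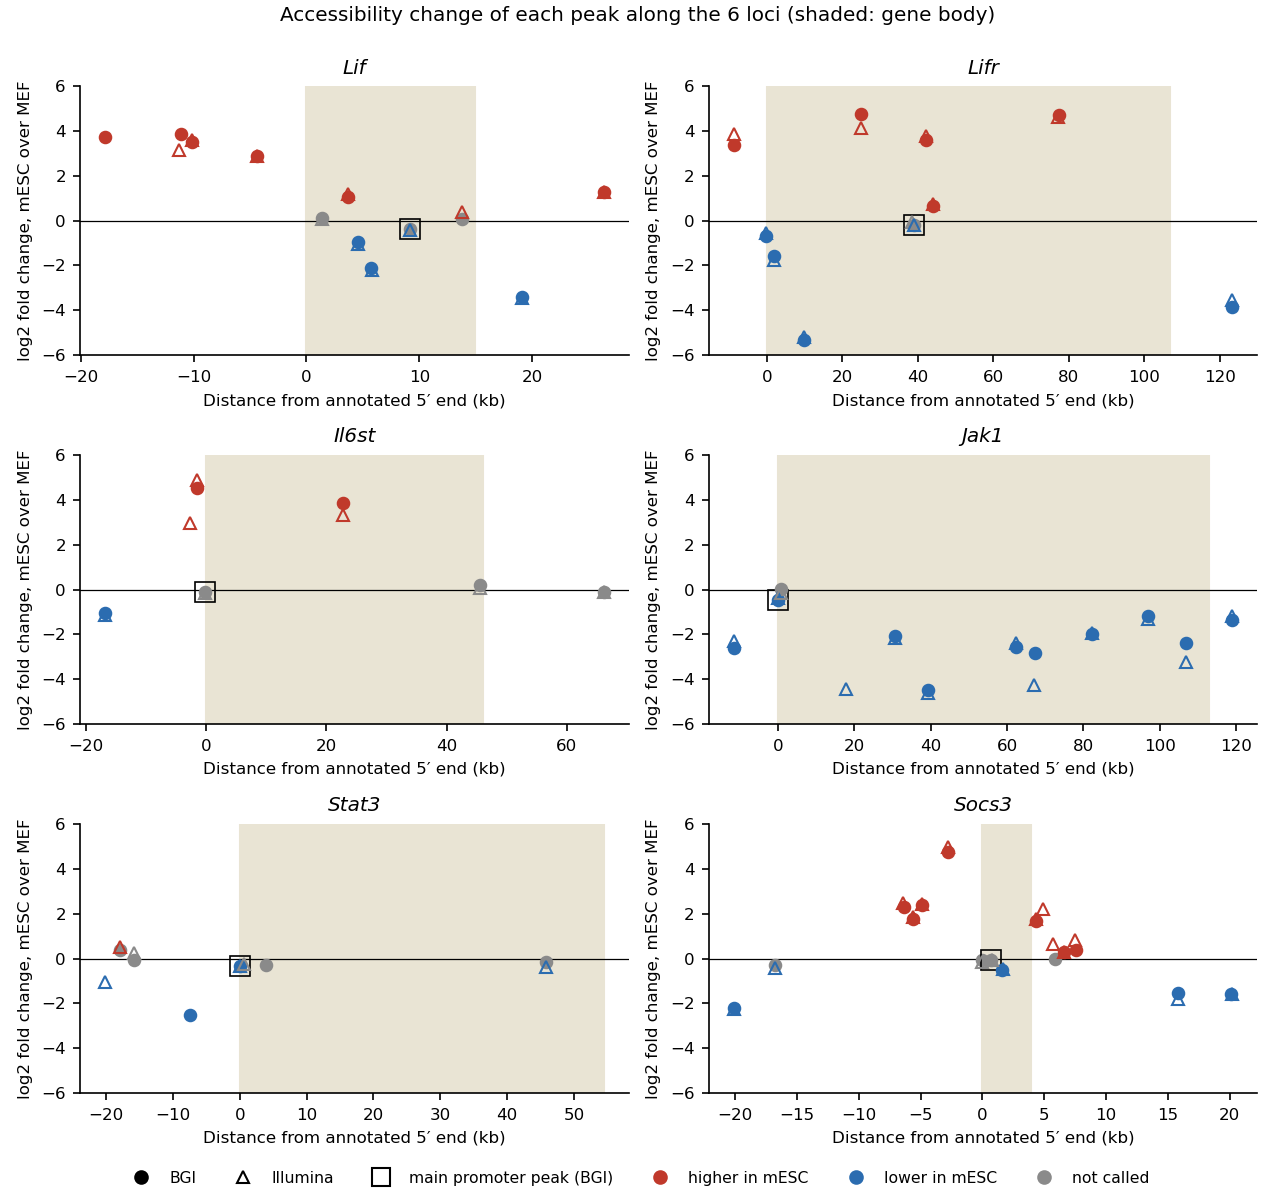
Log2 fold change, mESC over MEF, of every peak (y axis) against its distance from the annotated 5′ end of the gene in kb (x axis, positive in the direction of transcription), with circles for BGI, triangles for Illumina, colour for the call and shading for the gene body. The boxed main promoter peaks lie between -0.45 and -0.06, while peaks elsewhere spread from -5.31 to 4.75 on BGI.

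The main promoter peak of a gene was taken as the one with the highest mean count within 1 kb of any of its annotated TSSs. The peaks of the BGI and Illumina sets used here have the same width, but the platforms read GC-rich peaks differently, so the order is given for each platform. In MEFs on BGI the order by mean level was Stat3 (71.4 ± 3.4 CPM, SD, n = 3), Socs3 (69.3 ± 0.068), Il6st (48.2 ± 1.3), Jak1 (31.4 ± 1.4), Lifr (20.2 ± 1.6) and Lif (11.5 ± 3.1). In mESCs it was Socs3 (69.7 ± 8.0), Stat3 (58.8 ± 8.2), Il6st (46.9 ± 4.4), Jak1 (24.1 ± 1.1), Lifr (18.2 ± 1.7) and Lif (9.31 ± 1.0). On BGI the samples of Stat3 and Socs3 overlapped in both cell types, and those of Stat3 and Il6st overlapped in mESCs; the other neighbours in this order did not overlap. On Illumina the MEF order was Socs3 (79.2 ± 1.8 CPM), Stat3 (69.0 ± 3.1), Il6st (59.7 ± 2.1), Jak1 (37.5 ± 2.8), Lifr (32.8 ± 3.0) and Lif (15.005 ± 3.2). The mESC order there was Socs3 (78.7 ± 8.2), Stat3 (56.1 ± 5.2), Il6st (55.5 ± 5.5), Jak1 (29.6 ± 0.82), Lifr (29.2 ± 1.2) and Lif (11.7 ± 1.2). Jak1 and Lifr overlapped there in both cell types and Stat3 and Il6st in mESCs, while Socs3 and Stat3 did not overlap in either.

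Between the cell types, 2 of the 6 main promoters were lower in mESCs on BGI, beside 43.8% lower and 23% higher among the main promoters of all protein-coding genes. These were Jak1 (log2 fold change -0.45 ± 0.10 SE, adjusted p = 0.000352) and Stat3 (-0.34 ± 0.10, adjusted p = 0.00435). Lif (-0.38 ± 0.18), Lifr (-0.21 ± 0.12), Il6st (-0.10 ± 0.093) and Socs3 (-0.06 ± 0.093) were not called. On Illumina 4 of 6 were lower, beside 45.4% lower and 23.6% higher: Jak1 (-0.39, adjusted p = 0.000573), Stat3 (-0.34, 0.0012), Lif (-0.40, 0.0238) and Lifr (-0.21, 0.0462).

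Of these calls, those of Jak1 held in every fit that was run. With library sizes set to the down-sampled depths, which moved the median of all peaks up by 0.14 on BGI and 0.13 on Illumina, Stat3 on BGI fell short (-0.20, adjusted p = 0.117), as did Lif (-0.28) and Lifr (-0.08) on Illumina, and the values of Il6st (0.04) and Socs3 (0.09) on BGI and of Socs3 on Illumina (0.07) turned positive without a call. On Illumina, the call of Lif was lost without MEF 4, mESC 3 or mESC 5 (-0.27, -0.36 and -0.42), and that of Lifr without MEF 1, MEF 2, mESC 1 or mESC 5 (-0.24, -0.17, -0.22 and -0.17). Leaving out mESC 3 there made Il6st (-0.28, adjusted p = 0.00137) and Socs3 (-0.19, adjusted p = 0.00703) lower, and leaving out MEF 2 made Lif on BGI lower (-0.50, adjusted p = 0.0237).

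**Figure D2:**
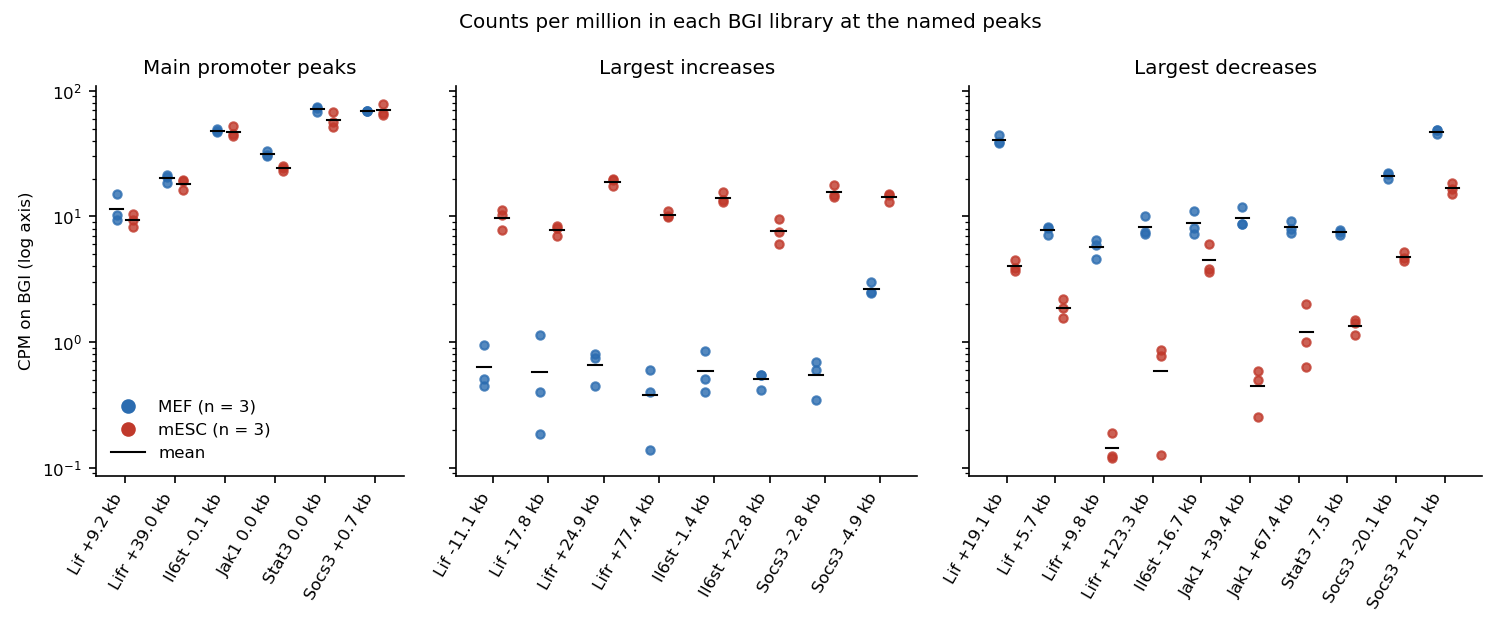
CPM in each BGI library (y axis, log scale) at the main promoter peaks, the peaks with the largest increases and those with the largest decreases (x axis, gene and distance from its 5′ end), with points for the 3 MEF and 3 mESC libraries and a bar for the mean. Cell types overlap at 5 of 6 promoters. They separate at each of the other peaks shown, which were picked for their change in these same libraries. Of all 49 BGI member peaks away from their own promoter, 9 overlapped.

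Lif, the ligand, lies on chromosome 11 (chr11:4257557-4272514, plus strand). Accessibility upstream of it was higher in mESCs, and the strongest MEF peak of the locus lay downstream. Here 4 peaks between -17.8 and -4.4 kb from the 5′ end were higher by log2 fold changes of 2.86 to 3.87 on BGI. At -11.1 kb (chr11:4246211-4246712) the level was 0.508, 0.447 and 0.946 CPM in MEFs and 10.3, 11.2 and 7.77 CPM in mESCs, a 14.7-fold difference (log2 3.87 ± 0.30, adjusted p = 1.75e-09). The Illumina peak there shared 64.1% of its width with it and differed 8.75-fold (log2 3.13 ± 0.28). At -17.8 kb (chr11:4239492-4239993), within the body of the neighbouring cytokine gene Osm, it was 0.185, 0.398 and 1.15 CPM in MEFs and 8.07, 7.04 and 8.45 CPM in mESCs (log2 3.71 ± 0.39, adjusted p = 8.06e-08). Without MEF 4 the log2 fold change there was 4.66, and no Illumina peak matched it. No MEF sample overlapped an mESC sample at any of these 4 peaks. MACS2 had called a summit at both of the peaks just given in all 6 mESC samples and in no MEF sample. These summits come from the same reads of 3 libraries per cell type, at peaks picked for their change, so they are no separate support.

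The peak 19.1 kb from the 5′ end, downstream of Lif and within the non-coding gene Gm11959, went the other way. Its levels of 44.7, 39.4 and 38.3 CPM in MEFs stood against 3.66, 4.49 and 3.91 CPM in mESCs (log2 -3.41 ± 0.14, adjusted p = 7.05e-13), 10.6-fold lower. The intronic peak at 5.7 kb (chr11:4263030-4263531) fell as well, from 8.08, 8.15 and 7.07 CPM to 2.21, 1.54 and 1.86 CPM (log2 -2.12 ± 0.24, adjusted p = 1.75e-07). No peak of either set lay within 1 kb of the 5′ end of Lif, so its main promoter peak above is that at the internal TSSs, 9.2 kb into the gene. The sequence at the centre of the downstream peak is shown because this was the Lif peak with the highest level in MEFs; here and in the sequences that follow, read 5′ to 3′ on the strand of the gene from the GRCm38.p6 RefSeq genome, capitals mark matches to a STAT (TTCNNNGAA), AP-1 (TGANTCA), octamer (ATTTGCAT) or ESRRB (TCAAGGTCA) motif on either strand, none of which overlap. It holds 1 AP-1 match.
Lif +19.1 kb, chr11:4276470-4276769, plus strand: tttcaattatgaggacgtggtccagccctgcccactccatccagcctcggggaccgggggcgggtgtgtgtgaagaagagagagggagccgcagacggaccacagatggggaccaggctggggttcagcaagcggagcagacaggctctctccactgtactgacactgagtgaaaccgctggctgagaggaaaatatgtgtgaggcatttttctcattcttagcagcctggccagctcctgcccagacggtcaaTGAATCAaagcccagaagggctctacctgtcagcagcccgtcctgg

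Lifr, the ligand-binding receptor chain (chr15:7090614-7197489, plus strand), had the widest range of the 6 genes. Of all 61552 BGI peaks away from any TSS, 28036 were higher and 27243 lower in mESCs. Lifr had 8 such peaks, 5 higher and 3 lower, with log2 fold changes from -5.31 to 4.75. The intronic peak at 24.9 kb (chr15:7115293-7115794) rose from 0.739, 0.447 and 0.797 CPM in MEFs to 19.3, 17.4 and 19.9 CPM in mESCs, 26.9-fold (log2 4.75 ± 0.22, adjusted p = 3.55e-12). Its matched Illumina peak differed 17.4-fold (log2 4.12 ± 0.24). At 77.4 kb, also intronic (chr15:7167784-7168285), the level rose from 0.138, 0.596 and 0.398 CPM to 9.9, 10.1 and 11.1 CPM (log2 4.70 ± 0.33, adjusted p = 4.14e-10). Beside the main promoter, 39.0 kb into the annotated body, the 24.9 kb peak overlapped in level in mESCs on BGI (19.4, 19.0 and 16.3 CPM at the promoter). On Illumina it was lower, with 18.0, 15.5 and 15.4 CPM against 29.4, 30.3 and 27.8 CPM at the promoter.

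Another pair of Lifr peaks were open in MEFs and nearly closed in mESCs. At 9.8 kb, in an intron (chr15:7100166-7100667), the MEF levels were 6.46, 5.91 and 4.58 CPM and the mESC levels 0.189, 0.118 and 0.124 CPM (log2 -5.31 ± 0.42, adjusted p = 2.2e-09). The mESC values rest on 7 reads in all (2 to 3 per library) against 351 in MEFs, a ratio of pooled CPM of 39.6 with an exact 95% interval of 19.0 to 99.2 for counting error alone. At 123.3 kb, downstream of Lifr and inside the body of Egflam (chr15:7213615-7214116), 7.29, 7.46 and 10.1 CPM in MEFs stood against 0.126, 0.769 and 0.87 CPM in mESCs (log2 -3.85 ± 0.37, adjusted p = 2.29e-08). The cell types did not overlap at any of these 4 peaks. A summit was called in all 6 samples (3 libraries, each read on both platforms) of the higher cell type and in none of the lower one. The 4 peaks were picked for their change and the summits come from the same reads, so neither is separate support. Both sequences below are shown because they sit at the largest changes of the locus in each direction: the mESC peak holds 3 STAT matches, the MEF peak 1 AP-1 match.
Lifr +24.9 kb, chr15:7115394-7115693, plus strand: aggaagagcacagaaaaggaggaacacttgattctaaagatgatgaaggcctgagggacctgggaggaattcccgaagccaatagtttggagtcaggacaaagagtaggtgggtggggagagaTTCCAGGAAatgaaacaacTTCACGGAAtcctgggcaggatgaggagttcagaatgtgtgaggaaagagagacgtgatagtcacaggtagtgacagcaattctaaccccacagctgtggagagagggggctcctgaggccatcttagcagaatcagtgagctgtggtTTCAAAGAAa
Lifr +9.8 kb, chr15:7100267-7100566, plus strand: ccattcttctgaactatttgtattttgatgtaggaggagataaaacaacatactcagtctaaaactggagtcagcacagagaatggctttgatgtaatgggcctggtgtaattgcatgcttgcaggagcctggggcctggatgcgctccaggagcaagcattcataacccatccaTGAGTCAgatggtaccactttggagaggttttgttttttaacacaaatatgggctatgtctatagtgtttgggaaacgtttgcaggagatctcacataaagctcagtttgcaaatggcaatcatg

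Il6st encodes the shared signal-transducing receptor chain (chr13:112464070-112510086, plus strand). The promoter itself was not called, and a peak just upstream of it was much higher in mESCs. At -1.4 kb (chr13:112462390-112462891) the levels were 0.508, 0.398 and 0.846 CPM in MEFs and 13.5, 15.5 and 13.1 CPM in mESCs, 22.8-fold higher (log2 4.51 ± 0.26, adjusted p = 4.12e-11). Its neighbour, the main promoter peak at -0.1 kb, held 47.3, 47.6 and 49.6 CPM in MEFs and 44.95, 52.0 and 43.9 CPM in mESCs. An intronic peak at 22.8 kb (chr13:112486642-112487143) rose from 0.415, 0.547 and 0.548 CPM to 5.99, 7.51 and 9.5 CPM (log2 3.85 ± 0.31, adjusted p = 3.23e-09). The 3 remaining BGI peaks of this locus changed less or were not called: the one at -16.7 kb was lower in mESCs (log2 -1.05 ± 0.23, adjusted p = 0.000502), and those at 45.6 and 66.1 kb had log2 fold changes of 0.18 and -0.12. An Illumina peak with no BGI counterpart, at -2.7 kb (chr13:112461099-112461600), measured 0.933, 0.845 and 0.443 CPM in MEFs and 7.06, 4.66 and 6.7 CPM in mESCs (log2 2.99 ± 0.32, adjusted p = 1.17e-07). The upstream mESC peak is shown because it was the largest change at Il6st, and it holds 1 octamer match.
Il6st -1.4 kb, chr13:112462491-112462790, plus strand: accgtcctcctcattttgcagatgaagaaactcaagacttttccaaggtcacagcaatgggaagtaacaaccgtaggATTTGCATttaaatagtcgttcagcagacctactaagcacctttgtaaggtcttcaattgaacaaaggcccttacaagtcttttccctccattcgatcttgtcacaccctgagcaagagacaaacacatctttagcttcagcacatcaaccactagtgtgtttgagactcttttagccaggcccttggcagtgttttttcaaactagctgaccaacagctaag

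Jak1, the receptor-bound kinase (chr4:101152367-101265282, minus strand), had peaks that were lower in mESCs along its whole length. Among all peaks away from any TSS, 27243 of 61552 were lower on BGI and 24337 of 57367 on Illumina. At Jak1 all 9 such BGI peaks were lower, by log2 fold changes from -4.48 to -1.17, and so were all 10 on Illumina, from -4.61 to -1.18. The largest fall was at 39.4 kb (chr4:101225668-101226169), from 11.8, 8.65 and 8.61 CPM in MEFs to 0.252, 0.591 and 0.497 CPM in mESCs (log2 -4.48 ± 0.31, adjusted p = 4.78e-10). At 67.4 kb (chr4:101197658-101198159), overlapping an exon, the level fell from 7.39, 7.95 and 9.26 CPM to 0.63, 1.01 and 1.99 CPM (log2 -2.82 ± 0.31, adjusted p = 1.27e-07); the Illumina peak there shared 61.6% of its width with it and had a log2 fold change of -4.26. No mESC sample reached a MEF sample at any of these 9 peaks, but the share of all peaks without such overlap was not counted.

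The peak with the highest mean level at Jak1 in MEFs, chosen here after its values were seen, lay in an intron at 62.4 kb. On BGI it measured 49.6, 48.2 and 37.4 CPM in MEFs, above the main promoter (30.8, 30.3 and 33.0 CPM), and 10.2, 6.45 and 7.52 CPM in mESCs (log2 -2.56, adjusted p = 8.21e-11). On Illumina its MEF levels of 42.6, 38.9 and 31.7 CPM overlapped those of the main promoter (36.0, 35.7 and 40.8 CPM). Its centre is shown because it holds 3 AP-1 matches, the most in the printed sequences.
Jak1 +62.4 kb, chr4:101202708-101203007, minus strand: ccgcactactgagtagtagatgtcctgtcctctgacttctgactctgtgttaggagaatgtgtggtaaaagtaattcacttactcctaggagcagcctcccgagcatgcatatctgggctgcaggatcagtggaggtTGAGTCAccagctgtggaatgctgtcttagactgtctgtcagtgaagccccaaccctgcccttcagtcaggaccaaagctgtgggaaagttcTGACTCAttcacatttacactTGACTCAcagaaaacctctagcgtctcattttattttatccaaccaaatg

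Stat3, the transcription factor of the pathway (chr11:100885098-100939540, minus strand), had the fewest called peaks on BGI, 2 of 6, beside 84.1% of all peaks. The first was its promoter, and the other lay upstream: at -7.5 kb (chr11:100946830-100947331) the level fell from 7.8, 7.11 and 7.52 CPM in MEFs to 1.13, 1.42 and 1.49 CPM in mESCs (log2 -2.53 ± 0.25, adjusted p = 3.18e-08). That peak had no Illumina counterpart. Its main promoter peak held on BGI 67.6, 74.2 and 72.4 CPM in MEFs and 56.9, 67.8 and 51.8 CPM in mESCs, with 1 mESC sample inside the range of the MEFs. Of its 6 Illumina peaks, 1 was higher, 3 were lower and 2 were not called, beside 84.5% of all peaks called. Those at -20.1 kb and -17.9 kb, both in the body of Cavin1, were lower (log2 -1.06) and higher (log2 0.52) in mESCs.

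Socs3, the feedback inhibitor (chr11:117966079-117970047, minus strand), had a main promoter that was not called, between groups of peaks that rose. On its upstream side 4 peaks from -6.3 to -2.8 kb were higher in mESCs by log2 fold changes of 1.74 to 4.74, and 3 of the 4 BGI peaks from 4.3 to 7.6 kb were higher by 0.28 to 1.69. A second promoter peak at 1.6 kb was lower (log2 -0.50, adjusted p = 0.0259). At the outer edges, peaks at -20.1, 15.8 and 20.1 kb were lower. The peak at -2.8 kb (chr11:117972644-117973145) measured 0.6, 0.348 and 0.697 CPM in MEFs and 14.7, 17.6 and 14.3 CPM in mESCs, 26.7-fold higher (log2 4.74 ± 0.25, adjusted p = 1.63e-11). At -4.9 kb (chr11:117974717-117975218) the level rose from 2.49, 2.44 and 2.99 CPM to 15.1, 14.7 and 13.1 CPM (log2 2.37 ± 0.18, adjusted p = 1.7e-09). The peaks at -6.3 and -5.6 kb reached mean levels of 26.1 and 33.2 CPM in mESCs, beside 5.0 and 9.47 CPM in MEFs.

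The edges of the Socs3 window were open in MEFs. At 20.1 kb downstream (chr11:117949657-117950158) the level was 44.9, 48.3 and 48.3 CPM in MEFs and 18.3, 15.2 and 16.6 CPM in mESCs (log2 -1.56 ± 0.10, adjusted p = 1.61e-10). At -20.1 kb (chr11:117989861-117990362), within the body of Pgs1, it was 22.0, 21.6 and 19.8 CPM in MEFs and 5.17, 4.43 and 4.66 CPM in mESCs (log2 -2.22 ± 0.15, adjusted p = 2.59e-10). The main promoter peak held 69.3, 69.3 and 69.2 CPM in MEFs and 66.5, 78.8 and 63.7 CPM in mESCs, which spanned the MEF values. A pair of Socs3 sequences is shown: the peak with the largest increase, with 1 ESRRB match, and 269 bases of the main promoter peak outside annotated UTRs, with 1 STAT match, since Socs3 is a known STAT3 target.
Socs3 -2.8 kb, chr11:117972745-117973044, minus strand: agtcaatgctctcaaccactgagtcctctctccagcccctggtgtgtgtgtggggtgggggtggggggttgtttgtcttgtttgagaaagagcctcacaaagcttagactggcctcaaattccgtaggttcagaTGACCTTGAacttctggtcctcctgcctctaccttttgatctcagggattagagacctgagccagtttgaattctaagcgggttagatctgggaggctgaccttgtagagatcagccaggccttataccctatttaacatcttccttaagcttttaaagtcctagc
Socs3 promoter, chr11:117969187-117969455, minus strand: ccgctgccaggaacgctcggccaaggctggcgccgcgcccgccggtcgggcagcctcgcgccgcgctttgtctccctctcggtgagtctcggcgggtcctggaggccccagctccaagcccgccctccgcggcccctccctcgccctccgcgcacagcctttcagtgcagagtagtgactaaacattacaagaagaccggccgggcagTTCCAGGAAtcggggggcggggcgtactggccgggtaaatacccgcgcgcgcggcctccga

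Matches were also counted over whole peaks. AP-1 factors are known in fibroblasts and the octamer and ESRRB motifs belong to pluripotency factors. An AP-1 match was present in 12 of the 24 BGI member peaks that were lower in mESCs (50%) and in 1 of the 20 that were higher (5%), beside 35.6% of all lower and 18.6% of all higher peaks. On Illumina it was present in 12 of 29 lower and 4 of 24 higher member peaks, beside 34.3% and 18.1%. A STAT match was present in 6 of 20 higher and 5 of 24 lower BGI member peaks (30% and 20.8%), beside 13.4% and 15.9%. The octamer and the ESRRB motif were each present in 2 of 20 higher peaks and in no lower one, beside 4.81% and 2.47% of all higher peaks and 2.22% and 0.63% of all lower ones. These are matches of letters, with no test, and no factor was measured.

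Summed over its window, each locus gave 1 value per library. The question was whether the opposite changes within a locus left a net difference. On BGI, 5 of the 6 totals differed between the cell types, beside 78.2% of 18371 protein-coding genes; Jak1 was lower in mESCs and Lifr higher by more than the other 4. The Jak1 total was 166.6, 162.4 and 151.8 CPM in MEFs and 59.3, 60.1 and 64.4 CPM in mESCs (log2 -1.46 ± 0.064, adjusted p = 3.96e-16). The Lifr total was 59.9, 64.4 and 62.6 CPM in MEFs and 99.6, 89.5 and 97.2 CPM in mESCs (log2 0.55 ± 0.066, adjusted p = 5.47e-08). The cell types did not overlap in either total.

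The other 4 totals moved less. Il6st (log2 0.22 ± 0.067, adjusted p = 0.00435) and Socs3 (0.15 ± 0.050, adjusted p = 0.00892) were higher in mESCs, Stat3 (-0.32 ± 0.067, adjusted p = 0.00012) was lower, and Lif (0.10 ± 0.059, adjusted p = 0.128) was not called. On Illumina the same 5 of 6 were called in the same directions, beside 78.2%: Jak1 -1.34, Lifr 0.38, Il6st 0.21, Socs3 0.23 and Stat3 -0.28, with Lif at 0.02. With the down-sampled depths the Illumina total of Stat3 was -0.16 and no longer called (adjusted p = 0.0504). With the gene bodies alone, without the added 20 kb, Socs3 was -0.10 on BGI and -0.12 on Illumina and Il6st 0.11 and 0.02, none of them called. Without mESC 3 the Illumina value of Il6st was 0.11 (adjusted p = 0.0888); the Lif total on BGI was called higher without MEF 1 (0.16), without mESC 3 (0.18), with median-ratio (RLE) size factors (0.14, adjusted p = 0.0398) and with the down-sampled depths (0.24, adjusted p = 0.00319).

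The 2 platforms read the same libraries, so their comparison shows what the reading and the peak set changed. Of the 60 BGI member peaks, 57 had an Illumina peak that shared at least 50% of their width. Of these, 54 had the same sign, 42 were called on both platforms, each in the same direction, 7 were called on Illumina alone, none on BGI alone and 8 on neither. The log2 fold changes differed by a median of 0.13 and by at most 1.44, at the Jak1 peak 67.4 kb into the gene. In the fit over all 12 samples, no member peak had an interaction of platform and cell type (edgeR, 0 of 60, beside 0% of all peaks). None had an unadjusted p under 0.05. That fit took the 2 readings of a library as independent samples, so its counts of 0 say little. With the library as a block the count was again 0 of 60, beside 0.386%, with 7 at an unadjusted p under 0.05 and a lowest adjusted p of 0.179.

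**Figure D3:**
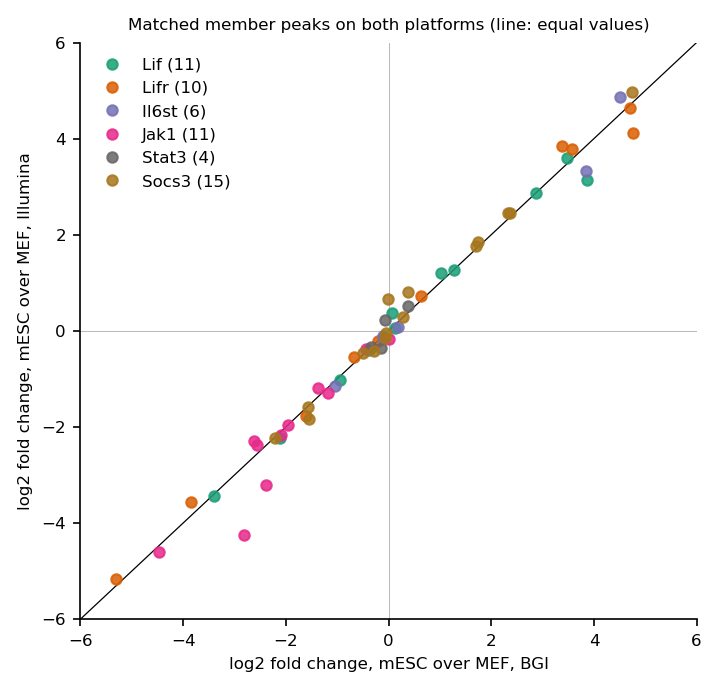
Log2 fold change, mESC over MEF, of the 57 matched member peaks on Illumina (y axis) against BGI (x axis), coloured by gene with the number of peaks in brackets; both axes use the same 6 libraries. Of the 57 points, 54 have the same sign on both axes, and the largest distance from the line of equal values is 1.44, at Jak1.

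Within a cell type, most but not all GC-rich peaks at these genes were read less on BGI. Without a block, 3 of 48 member peaks differed between the platforms in MEFs (4.06% of all peaks) and 2 of 44 in mESCs (3.23%). With the library as a block these counts were 15 and 14 (29.2% and 21.3% of all peaks), and with an offset for the GC content of the peaks added to the block 4 and 10 (10.4% of all peaks in each). With the block alone, 9 of the 15 in MEFs were lower on BGI, all of at least 60% GC, and 6 were higher, all under 60% GC; in mESCs 12 were lower, 10 of at least 60% GC and 2 under it, and the 2 that were higher were under 60% GC. The Lifr promoter, at 78.6% GC, measured in MEFs 20.7 CPM by BGI reads and 32.9 CPM by Illumina reads (log2 -0.69 ± 0.065 with the block, adjusted p = 5.18e-14), and 18.1 and 28.9 CPM in mESCs (-0.72). The main promoter of Stat3, at 65.4% GC, was not called, with log2 fold changes of 0.04 in MEFs and 0.02 in mESCs with the block. Without the block the MEF count was 0 when MEF 1 or MEF 2 was left out and 7 without MEF 4, and the mESC count was 0 without mESC 1 or mESC 5 and 1 without mESC 3.

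**Figure D4:**
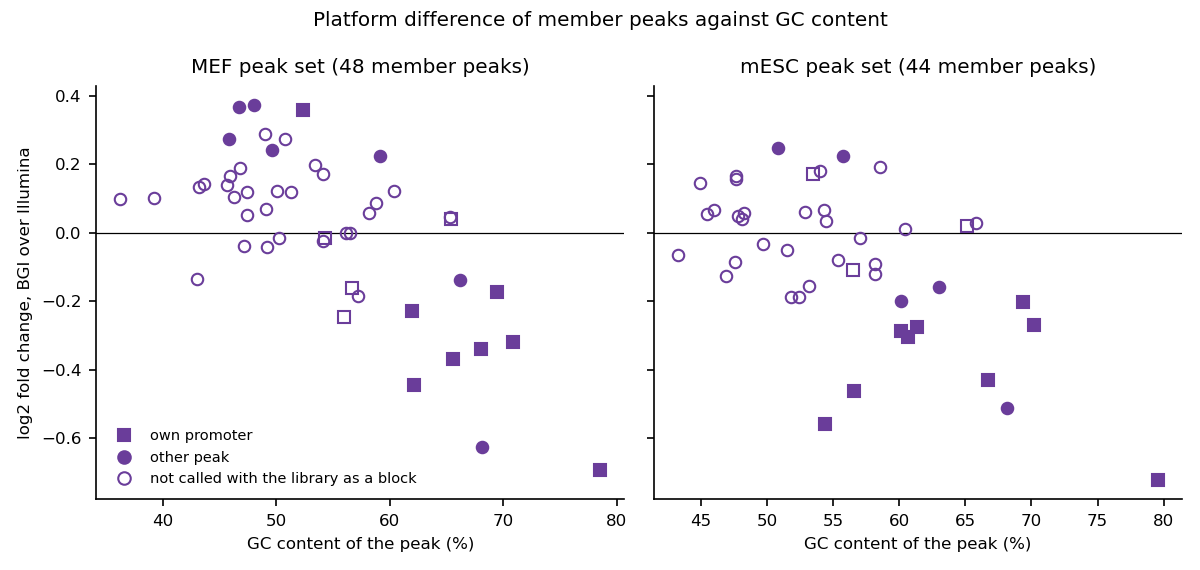
Log2 fold change, BGI over Illumina (y axis), of each member peak against its GC content in percent (x axis) on the MEF and the mESC peak set, with squares for own promoters, circles for other peaks and filled symbols for peaks called with the library as a block. The points lowest on BGI are at the Lifr promoter, -0.69 in MEFs and -0.72 in mESCs.

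The wider pathway was followed through the promoter peaks of 49 further genes, grouped as ligands, receptors, kinases, STATs, inhibitors and adaptors, and targets. On BGI 47 had a promoter peak, of which 14 were higher, 22 lower and 11 not called, with a median log2 fold change of -0.19 beside -0.18 for the promoters of all protein-coding genes, of which 23% were higher and 43.8% lower. On Illumina 13 were higher and 22 lower of 46, beside 23.6% and 45.4% of all. With library sizes set to the down-sampled depths the split was 15 higher to 12 lower on BGI, beside 28.4% and 30.2% of all promoters in that fit, and 14 to 13 on Illumina, beside 28.7% and 33.2%.

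Named by the largest change on BGI in each group, among genes called on both platforms, the ligand Il11 was higher in mESCs (log2 1.17 on BGI and 0.92 on Illumina) and the ligand Clcf1 lower (-0.33 and -0.37). Among receptors, Cntfr, for ciliary neurotrophic factor, was higher (0.71 and 0.52) and Osmr, for oncostatin M, lower (-0.97 and -1.02). Among kinases, Tyk2 was higher (0.37 and 0.38) and Jak2 lower (-1.40 and -1.31). Of the other STATs, Stat4 was higher (1.76 and 1.90), and of the 4 that were lower Stat6 fell most (-1.50 and -1.49). These are larger than the change of the Stat3 promoter, though the difference between the genes was not tested.

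Among inhibitors and adaptors, 3 were higher and 9 lower of 17 on BGI, beside 23% and 43.8% of all promoters. The phosphatase gene Ptpn6 was higher (2.77 and 2.65) and Pias4, which encodes an inhibitor of activated STATs, lower (-0.71 and -0.53), though on Illumina Socs1 (-0.72) and Cish (-0.63) were lower still. Of 12 targets 5 were higher and 3 lower on both platforms, beside 23% and 43.8% of all promoters on BGI and 23.6% and 45.4% on Illumina. Sall4, a transcription factor of pluripotent cells, had the largest increase of the list (3.50 and 3.28), from 2.76 to 32.6 CPM on BGI, while Pim1, a survival kinase, was lower (-0.32 and -0.29), as was Pim3 (-0.25 and -0.31). Klf4 (-0.27 and -0.29) and Tfcp2l1 (1.66 and 1.65), both known LIF targets in mESCs and picked here after their values were seen, went in opposite directions. On BGI the call of Klf4 was barely past the threshold (edgeR, adjusted p = 0.0493), unlike that of Tfcp2l1 (adjusted p = 2.47e-08).

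**Figure D5:**
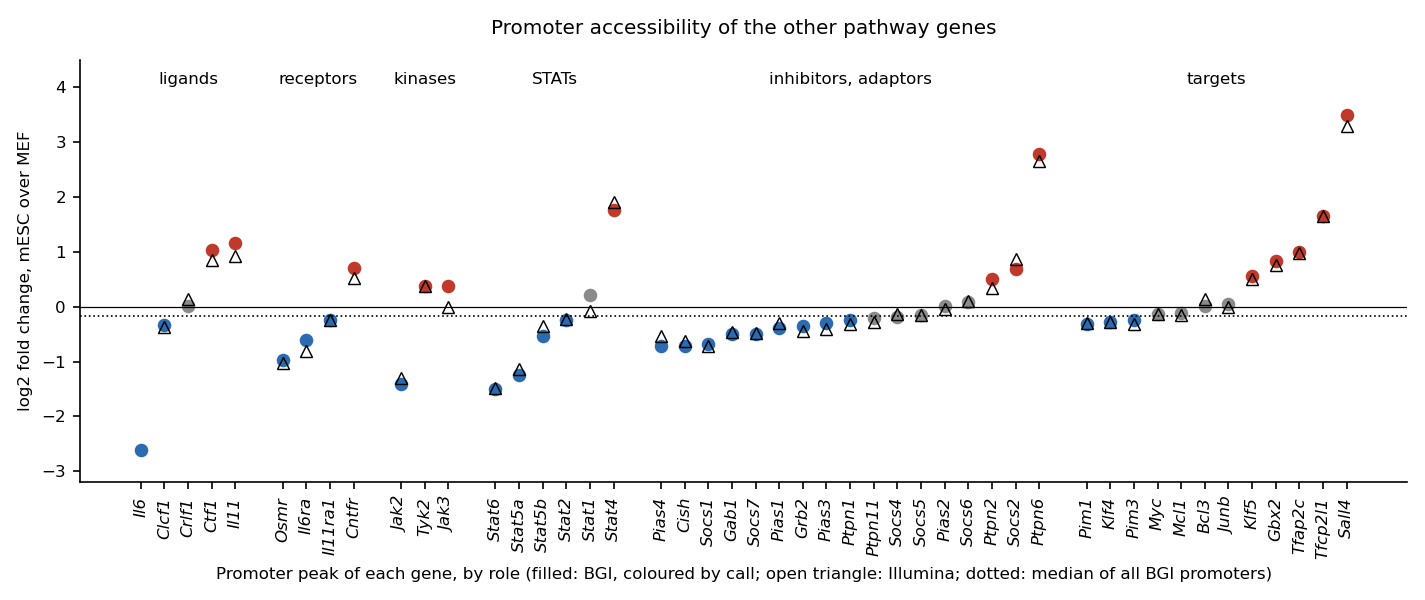
Log2 fold change, mESC over MEF, of the promoter peak of each pathway gene (y axis), sorted within its role (x axis), with filled points for BGI coloured by call, open triangles for Illumina and a dotted line at the median of all BGI promoters, -0.18. Sall4 and Ptpn6 lie highest at 3.50 and 2.77, and Il6, which had a BGI promoter peak alone, lowest at -2.61.

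As a description of pattern, each main promoter was set beside those of 15120 other protein-coding genes over the 12 samples counted on the BGI peak set, as Pearson's r of log2(CPM + 1). The 12 points come from 6 libraries read on both platforms, so they share cell type, platform and GC content. The closest promoter was that of Ddx27 for Lif (r = 0.94), Tomm20 for Lifr (0.98), Trim27 for Il6st (0.98), 1110065P20Rik for Jak1 (0.99), Nxf2 for Stat3 (0.97) and Cyp2r1 for Socs3 (0.97). An r above 0.9 was common for Jak1 (1380 genes) and rare for Lif (14 genes).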

How the data were processed

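Omni-ATAC-seq was compared between 3 MEF and 3 mESC libraries, each read on 2 platforms. Per the study's methods, the authors trimmed reads, aligned them to GRCm38 (mm10 per the labels), kept mapping quality of at least 10, and down-sampled to 60 M reads (MEF) or 45 M (mESC). They called peaks per sample with MACS2 and kept fixed-width peaks found in at least 2 samples of a group; the MEF and mESC tables also hold wider ones. The deposited count tables hold raw read counts per peak and were used as deposited. The deposited peak lists give, per sample, a fold enrichment ratio, −log10 p-values and q-values and a score. From these only the fold and the −log10 p were used. Depth was 15860985 to 21662775 reads in peaks; intervals cover counting error only.

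Peaks were placed on GENCODE M21. Counts were tested with edgeR 4.0.16 (R 4.3.3; TMM, filterByExpr, quasi-likelihood F test, Benjamini-Hochberg over all peaks of the set, threshold 0.05); SE is the absolute log2 fold change divided by the square root of F. CPM are counts scaled to each sample's total in peaks. DESeq2 1.42.0, RLE factors, fixed depths, no filter, windows of 0 and 50 kb and leaving out each library were alternatives. The scripts were tested on simulated data. For platforms, the deviations of a library's own readings correlated at 0.618 to 0.837 (MEF) and 0.514 to 0.722 (mESC), and those of different libraries at most at 0.298, so library numbers pair the samples. Cell types share no pairing.

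In full were named each gene's main promoter peak and up to 2 called BGI peaks with the largest increase and decrease; in the pathway list, the largest change per role and direction called on both platforms. The genes, lists and motifs were chosen with earlier results of these data known. Tables were computed in Python 3.11.15 (pandas 2.3.3) and plots drawn with matplotlib 3.10.9.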

Additional observations from a re-analysis of the deposited data

Results flagged for a closer look

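Outside the count tables, the peak calls of single samples held a signal at the annotated 5′ end of Lif, where neither consensus set has a peak. A summit was called within 1 kb of it in 6 of 6 mESC samples (3 libraries, each read on both platforms) and in 0 of 6 MEF samples. The summits had fold enrichments of 2.96 to 4.16 and −log10 p of 3.72 to 6.66. At the 5′ end of Lifr, the lowest of the other 5 genes, the fold enrichments were 4.799 to 13.7. The difference between the cell types at Lif was not tested.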

How the results depend on the processing

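Of 460 alternative values of the named peaks, 443 kept their direction and their side of the threshold, as did 139 of 156 for the locus totals. With the down-sampled depths, the log2 fold changes of the main promoters of Il6st (0.0407) and Socs3 (0.0864) on BGI and of Socs3 (0.0744) on Illumina reversed, none called; with a library left out Socs3 on BGI ran from -0.129 to 0.0130, above 0 without mESC 5. With a window of 0 kb, 6 were higher and 15 lower of 32 peaks on BGI and 7 and 19 of 34 on Illumina. With 50 kb they were 33 and 54 of 111 on BGI and 36 and 57 of 110 on Illumina, beside 40.9% and 43.2% of all BGI and 42.1% and 42.4% of all Illumina peaks. The Lif total on BGI was 0.14 with RLE factors and 0.24 with the down-sampled depths, both called higher, -0.0740 with 0 kb and -0.0185 with 50 kb, and 0.0664 to 0.18 with a library left out. On Illumina it was -0.0250 with 0 kb, -0.0333 with 50 kb and -0.0689 to 0.0651 with a library left out, negative without MEF 2, MEF 4 or mESC 1. With 0 kb, Il6st was 0.11 on BGI and 0.01997 on Illumina, and Socs3 -0.10 and -0.12. In the 20 kb window, Il6st on Illumina was 0.11 to 0.25 with a library left out, and lost its call without mESC 3. Stat3 on Illumina lost its call at -0.16 with the down-sampled depths. Between platforms, the MEF count was 15 with the library as a block, 4 with the block and a GC offset and 0 to 7 with a library left out; the mESC count was 14 with the block, 10 with the block and a GC offset, 1 with RLE factors and 0 to 1 with a library left out. For the pathway list, whose alternatives were chosen after seeing the data, 12 promoters on BGI and 13 on Illumina were lower with the down-sampled depths, beside 30.2% and 33.2% of all promoters in those fits. The block was used in the platform and interaction fits. It cannot enter the fits between cell types, since each library holds a single cell type. The causes were not tested. Peaks near 0.1 CPM rest on few reads, and 3 libraries per cell type limit what small promoter differences can show.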
